A study of Mus musculus with 20 samples.

Results

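The immediate early and activity-induced genes are a set of 10 genes, Fos, Fosb, Jun, Junb, Egr1, Nr4a1, Nr4a3, Atf3, Ier2 and Btg2, named by symbol among the 53465 gene identifiers of the deposited tables. All 10 matched an identifier, and all 10 were among the 15709 genes that passed the filter on low counts. They were followed across 20 libraries of poly(A) RNA, from muscle that the labels call skeletal, of wild type mice in 4 groups of 5: trained males, non-trained males, trained females and non-trained females. The labels used here give no age, strain, muscle, training protocol, batch or time of collection, and none gives the interval between the last training session and tissue collection. Each library is a sample of its own in the labels, but no label ties it to a separate animal, so the spread behind each p-value may be technical.

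Immediate early genes are transcribed within minutes of a stimulus, without new protein synthesis, when calcium, cyclic AMP or mitogen-activated kinase signals activate transcription factors already bound to their promoters, among them CREB and the serum response factor. Their mRNAs are short-lived, so a tissue holds much of them only for a short time after the stimulus. In skeletal muscle they are known to respond to contraction, to stretch and injury, and also to the handling and killing of the animal, which is why they are read as a trace of recent events. CREB binds the cyclic AMP response element, whose core is TGACG.

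The promoters of some genes on which the results below turn are shown for this element. They are Fos, Junb and Btg2, each positively correlated with Ier2 below, and the receptor genes Nr4a1 and Nr4a3, which averaged lower in males. Each covers 250 bases before to 50 after the start site, from RefSeq on GRCm38.p6, written 5′ to 3′ on the gene's own strand, with every TGACG, or CGTCA where it lies on the other strand, in capitals.
Fos, chr12:85473640-85473939, plus strand: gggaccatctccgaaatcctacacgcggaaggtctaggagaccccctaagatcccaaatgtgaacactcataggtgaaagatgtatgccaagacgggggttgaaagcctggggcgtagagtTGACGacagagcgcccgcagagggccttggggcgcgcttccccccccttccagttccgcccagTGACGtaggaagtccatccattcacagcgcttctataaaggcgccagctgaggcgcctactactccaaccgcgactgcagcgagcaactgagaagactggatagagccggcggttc
Junb, chr8:84978699-84978998, minus strand: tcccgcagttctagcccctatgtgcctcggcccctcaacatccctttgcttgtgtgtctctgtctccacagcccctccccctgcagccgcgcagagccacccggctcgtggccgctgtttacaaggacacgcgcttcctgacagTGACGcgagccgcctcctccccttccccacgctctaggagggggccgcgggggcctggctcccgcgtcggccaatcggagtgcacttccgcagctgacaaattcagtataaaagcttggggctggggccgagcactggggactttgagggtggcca
Btg2, chr1:134079106-134079405, minus strand: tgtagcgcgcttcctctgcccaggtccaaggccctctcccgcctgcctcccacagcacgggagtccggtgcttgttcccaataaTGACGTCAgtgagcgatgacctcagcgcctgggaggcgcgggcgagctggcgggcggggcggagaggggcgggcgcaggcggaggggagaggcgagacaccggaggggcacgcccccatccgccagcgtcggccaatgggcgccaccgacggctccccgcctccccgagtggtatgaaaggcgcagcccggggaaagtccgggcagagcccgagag
Nr4a1, chr15:101266596-101266895, plus strand: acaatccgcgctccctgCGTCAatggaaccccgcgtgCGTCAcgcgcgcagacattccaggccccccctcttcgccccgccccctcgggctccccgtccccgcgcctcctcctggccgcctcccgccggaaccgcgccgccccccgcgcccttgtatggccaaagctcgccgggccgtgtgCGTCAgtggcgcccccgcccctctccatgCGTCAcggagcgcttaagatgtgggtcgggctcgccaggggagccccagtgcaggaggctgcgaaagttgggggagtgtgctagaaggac
Nr4a3, chr4:48045055-48045354, plus strand: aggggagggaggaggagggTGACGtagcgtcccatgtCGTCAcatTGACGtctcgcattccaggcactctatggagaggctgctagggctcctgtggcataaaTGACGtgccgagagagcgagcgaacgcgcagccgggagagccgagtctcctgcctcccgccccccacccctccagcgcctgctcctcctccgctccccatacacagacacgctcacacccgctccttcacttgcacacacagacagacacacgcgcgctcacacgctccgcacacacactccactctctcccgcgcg
The promoter table held 8 of the 10 genes, all but Egr1 and Ier2. Of these 8, 7 carried at least 1 TGACG on either strand, against 20.8% of all 32851 promoters of the same length. Jun carried none, and Fosb and Atf3, which carried it, are not shown. Nr4a1 and Nr4a3 carried 4 copies each, Fos 2 and Junb 1, and Btg2 carried the full palindrome TGACGTCA, which 1.79% of all promoters hold and which counts here as a copy on each strand. None of the 8 held the CArG box of the serum response factor in this window (1.63% of all promoters did), and 2 of 8, Fosb and Nr4a1, held an EGR site, searched as GCGGGGGCG or GCGTGGGCG on both strands (3.47% of all). A match describes letters and not occupancy.

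The libraries held 22043145 to 38483572 counts. Female non-trained library 1 had the highest total and the fewest genes above 0, 18727 against 19806 to 21449 in the others. Muscle fibre markers summed to 115600 to 133400 CPM (CPM are counts scaled to a common library size by TMM) in trained males, 120000 to 139900 in non-trained males, 118600 to 142000 in trained females and 100900 to 145200 in non-trained females. Liver markers summed to at most 2.51 CPM in any library. The RNA is from bulk muscle, so a change in the cells present and a change in RNA per cell cannot be told apart.

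Between genes, levels were compared per length in TPM (the authors' transcript abundance, scaled to the same total in each library), over all 20 libraries. Nr4a1, which encodes the orphan nuclear receptor NUR77, was the most abundant with a median of 73.1 TPM (34.3 to 224.5). Jun, which encodes the c-Jun subunit of the AP-1 transcription factor, followed at 38.3 TPM (28.8 to 63.4). Btg2, an antiproliferative gene, had a median of 10.2 TPM (5.31 to 20.01), Junb 8.48 (4.32 to 21.7) and Atf3 6.49 (2.71 to 28.6). Ier2 stood at 4.63 TPM (3.20 to 8.60), Fos at 4.33 (1.34 to 16.5), Nr4a3 at 3.22 (1.53 to 17.4) and Egr1 at 2.37 (1.60 to 16.4). Fosb was lowest at 0.235 TPM (listed at 0 to 0.62). Neighbours in this order had overlapping ranges from Btg2 down to Egr1, and so had Nr4a1 and Jun, and the range of Fosb lay wholly below that of every other member.

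The AP-1 genes were low except Jun. Fos (chromosome 12, 85473890 to 85477273), the partner that pairs with Jun proteins in AP-1, varied several fold inside each group. Fos stood at 1.84, 3.34, 4.76, 7.06 and 2.91 CPM in the 5 trained males, against 9.86, 9.73, 4.02, 4.63 and 2.17 CPM in the 5 non-trained males. Female libraries held 9.73, 9.95, 2.36, 2.96 and 7.64 CPM with training, against 16.2, 7.54, 3.95, 5.403 and 20.9 CPM without it. The highest library, female non-trained library 5, was a non-trained one, and the groups overlapped. Fosb (chromosome 7, 19302696 to 19310051), a close relative of Fos, rested on few reads: 0 to 11 in trained males, 4 to 35 in non-trained males, 13 to 32 in trained females and 8 to 56 in non-trained females. Fosb was at 0.194, 0, 0.354, 0.176 and 0.166 CPM in the 5 trained males, against 0.582, 1.09, 0.554, 0.477 and 0.128 CPM in the 5 non-trained males. The female libraries gave 0.516, 1.002, 0.816, 0.475 and 1.12 CPM with training, against 1.57, 0.608, 0.259, 0.703 and 0.914 CPM without it. Trained males were the low group, below every trained female library, while male non-trained library 5 and female non-trained library 3 lay among them.

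Junb (chromosome 8, 84974484 to 84978718), an AP-1 subunit that is often less active than c-Jun, was highest in male non-trained library 2. Junb stood at 7.55, 10.2, 12.1, 10.1 and 6.39 CPM in the 5 trained males, against 9.67, 24.9, 9.42, 13.2 and 8.204 CPM in the 5 non-trained males. In females it came to 5.501, 17.3, 12.5, 7.63 and 12.8 CPM with training, against 23.2, 18.6, 9.11, 9.58 and 15.7 CPM without it. In both sexes the trained and non-trained ranges overlapped. Jun (chromosome 4, 95049034 to 95052222) was the steadiest of the 4, at 62.9 to 95.1 CPM in trained males and 69.5 to 122 CPM in non-trained males, and at 70.8 to 131 CPM in trained females and 69.3 to 92.5 CPM in non-trained females. Its expected counts were fractional in 20 of 20 libraries, so some of its reads also fitted another gene, whereas 8 of the other 9 members had whole counts throughout.

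**Figure D1:**
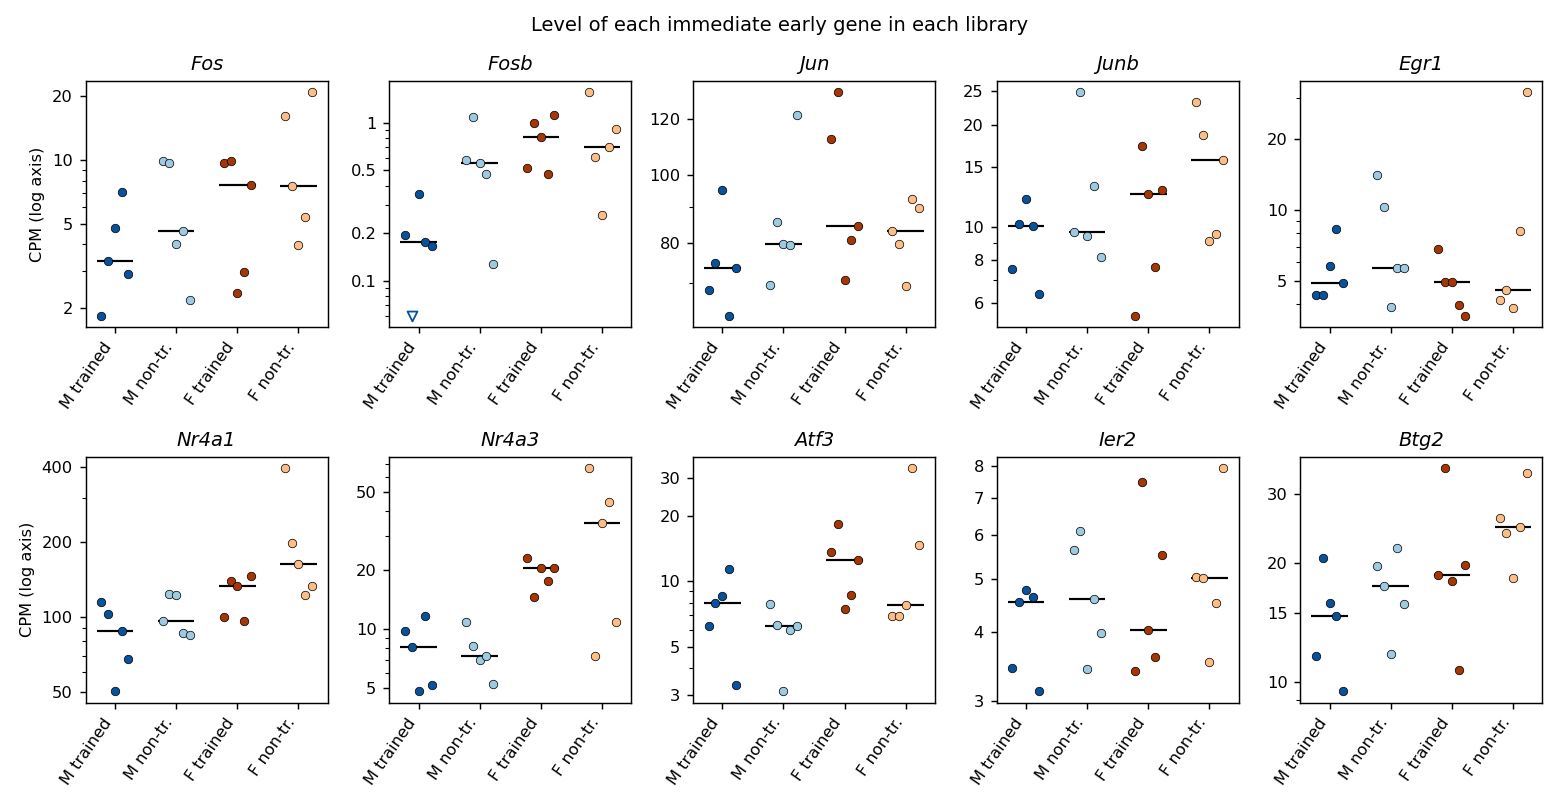
CPM of each gene (log axis) in each library, 5 points a group with a bar at the median; M is male, F is female, and the open triangle marks a Fosb value of 0, drawn at the foot of the axis. Nr4a3 is lower in both male groups than in trained females, and in non-trained females it ranges from 7.36 to 66.7 CPM.

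Egr1 (chromosome 18, 34859823 to 34864984), a zinc finger transcription factor gene that follows MAP kinase signalling, had its highest value in a non-trained female. Egr1 measured 4.36, 4.37, 5.79, 8.295 and 4.92 CPM in the 5 trained males, against 14.1, 10.3, 3.88, 5.66 and 5.68 CPM in the 5 non-trained males. Trained female libraries had 6.84, 4.94, 4.94, 3.94 and 3.56 CPM, against 4.14, 4.56, 3.82, 8.17 and 31.8 CPM in non-trained females. Female non-trained library 5 stood at 31.8 CPM and the other 4 of its group at 3.82 to 8.17 CPM, while male non-trained libraries 1 and 2 were the next highest of all. That library was also the highest of the 20 for Fos and Ier2.

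The NR4A receptor genes averaged lower in males in both training states. NR4A receptors are constitutively active nuclear receptors that bind as monomers to DNA and, in muscle, are known for raising genes of glucose and oxidative metabolism after activity. Nr4a1 (chromosome 15, 101254269 to 101274795) averaged highest in non-trained females. Nr4a1 reached 115, 103, 50.2, 87.7 and 67.8 CPM in the 5 trained males, against 96.3, 124, 123, 86.4 and 85.1 CPM in the 5 non-trained males. Among females the values were 99.7, 140.1, 133, 96.4 and 146 CPM with training, against 398, 199, 164, 123 and 134 CPM without it. Female non-trained library 1, the library with the fewest detected genes, had the highest value of all, and the lowest non-trained female value (123.0 CPM) lay below the highest non-trained male value (123.8 CPM). The relative Nr4a3 (chromosome 4, 48045153 to 48086447) encodes NOR1. Nr4a3 stood at 9.84, 8.15, 4.83, 11.8 and 5.202 CPM in the 5 trained males, against 10.9, 8.27, 6.96, 7.29 and 5.27 CPM in the 5 non-trained males. Female levels were 23.04, 14.7, 20.5, 17.7 and 20.6 CPM with training, against 66.7, 7.36, 35.1, 44.8 and 10.9 CPM without it. All 5 trained females lay above all 5 trained males. In non-trained mice libraries 1, 3 and 4 of the females lay above every male, and libraries 2 and 5 lay within the male range, library 5 at its upper edge.

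Atf3 (chromosome 1, 191170296 to 191218039), a stress-induced transcription factor gene of the ATF/CREB family, was highest in female non-trained library 4. Atf3 stood at 6.26, 7.99, 8.59, 11.4 and 3.35 CPM in the 5 trained males, against 7.84, 6.28, 3.12, 5.96 and 6.22 CPM in the 5 non-trained males. For females the level was 13.6, 18.4, 7.48, 8.62 and 12.5 CPM with training, against 6.96, 6.96, 7.78, 33.3 and 14.7 CPM without it. Its high library was neither the one that led Egr1 nor the one that led the NR4A genes. Ier2 (chromosome 8, 84661331 to 84662852), a small nuclear protein gene, was among the least variable, from 3.13 CPM in a trained male to 7.93 CPM in a non-trained female. Btg2 (chromosome 1, 134075170 to 134079120) stood at 9.46 to 20.6 CPM in trained males, 11.8 to 21.9 CPM in non-trained males, 10.7 to 34.9 CPM in trained females and 18.4 to 33.8 CPM in non-trained females, and all these ranges overlapped.

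The question whether training left these genes at another level was tested in each sex, with edgeR's quasi-likelihood test over all genes and a Benjamini-Hochberg adjusted p threshold of 0.05. In males 0 of the 10 members passed, where 0% of all 15709 genes did, and DESeq2 and limma-voom also called 0 members. Log2 differences, trained minus non-trained, were below 0 for 8 of 10 members with a median of -0.27, against a median of -0.0002 over all genes. At an unadjusted p under 0.05 there was 1 member, Fosb, with -1.67 (SE 0.62, 95% CI -2.96 to -0.38) and adjusted p = 0.993 by edgeR, where 4.3% of all genes stood. Fos had -0.62 (SE 0.54, 95% CI -1.76 to 0.52) and Egr1 -0.52 (SE 0.51, 95% CI -1.60 to 0.56), intervals wide enough to hold a halving or a rise. With 1 library left out in turn Fos ran from -0.92 to -0.37 and Egr1 from -0.71 to -0.20. Both were nearest 0 without male non-trained library 1. Nr4a3 had 0.04 (SE 0.45, 95% CI -0.92 to 0.99) and Atf3 the highest value, 0.35 (SE 0.43, 95% CI -0.55 to 1.25).

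In females 0 of the 10 members passed by edgeR, again where 0% of all genes did, and likewise 0 by DESeq2 and limma-voom. Here 9 of 10 values were below 0, Jun being above, with a median of -0.38 against 0.00 over all genes. At an unadjusted p under 0.05 there were 2 members, where 8.57% of all genes stood. These were Nr4a1 with -0.73 (SE 0.28, 95% CI -1.32 to -0.13) and adjusted p = 0.495 by edgeR, and Egr1 with -1.11 (SE 0.52, 95% CI -2.20 to -0.01) and adjusted p = 0.581 by edgeR. Fos had -0.72 (SE 0.53, 95% CI -1.84 to 0.40), Junb -0.45 (SE 0.35, 95% CI -1.18 to 0.27) and Nr4a3 -0.77 (SE 0.44, 95% CI -1.69 to 0.15). With 1 library left out in turn, values ran from -0.86 to -0.34 for Nr4a1 and from -1.32 to -0.09 for Egr1. They ran from -0.95 to -0.34 for Fos, -0.67 to -0.25 for Junb and -1.04 to -0.34 for Nr4a3. Leaving out female non-trained library 1 gave -0.34 for Nr4a1, -0.34 for Nr4a3 and -0.25 for Junb, and leaving out female non-trained library 5 gave -0.09 for Egr1 and -0.34 for Fos.

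Averaged over the sexes, 0 of 10 members passed by edgeR (0.0127% of all genes), and 0 by DESeq2 and limma-voom. Values were below 0 for 9 of 10 members and for 49.4% of all genes, with medians of -0.42 and 0.00. The members are not independent, since several were high in the same libraries. At an unadjusted p under 0.05 there were 2, Nr4a1 at -0.50 (SE 0.20, 95% CI -0.92 to -0.09) and Egr1 at -0.81 (SE 0.37, 95% CI -1.58 to -0.04), against 9.17% of all genes. With 1 library left out in turn Nr4a1 ran from -0.57 to -0.31, the latter without female non-trained library 1. Egr1 ran from -0.92 to -0.30, the latter without female non-trained library 5. Jun stood at -0.0029 (SE 0.12, 95% CI -0.25 to 0.24), the narrowest interval of the set. The training effect was not shown to differ between the sexes for any member: 0 of 10 passed the interaction test by edgeR, DESeq2 or limma-voom, 0 at an unadjusted p under 0.05 (4.18% of all genes), and values ran from -1.62 (Fosb) to 0.81 (Nr4a3).

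**Figure D2:**
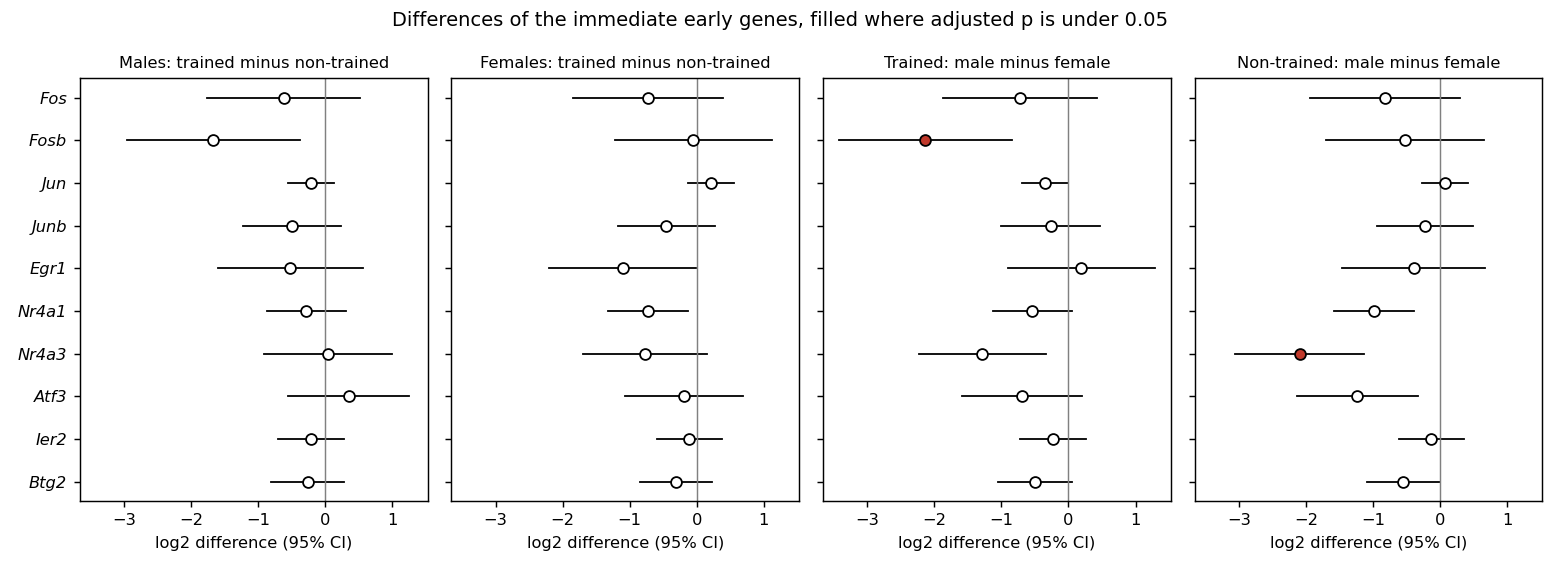
Log2 difference of each gene (point) with its 95% confidence interval (line) in 4 comparisons, training in males, training in females, and males minus females among trained and among non-trained mice; filled points passed an adjusted p of 0.05. The filled points are Fosb in trained mice (-2.13) and Nr4a3 in non-trained mice (-2.09).

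Between the sexes 1 member passed in each training state, both lower in males. Values, male minus female, were below 0 for 9 of 10 members in trained mice and for 49.5% of all genes, with medians of -0.52 and 0.00. In non-trained mice they were below 0 for 9 of 10 members and 49.2% of all genes, with medians of -0.53 and 0.00. As for training, the members are not independent. In non-trained mice Nr4a3 averaged 7.74 ± 2.07 CPM in the male group and 32.97 ± 24.6 CPM in the female one (± SD, n = 5 a group), a log2 difference, male minus female, of -2.09 (SE 0.46, 95% CI -3.05 to -1.13) with adjusted p = 0.0136 by edgeR. It was 1 of 10 members called, where 5.21% of all genes were, 2.07% of all genes being lower. Nr4a3 kept its call with each library left out in turn (-2.36 to -1.66, adjusted p = 0.0023 to 0.040 by edgeR), at -1.66 without female non-trained library 1. It lost it with only the non-trained groups in the fit (adjusted p = 0.078 by edgeR), in limma-voom (0.057), and without female non-trained library 1 and male non-trained library 5 together (-1.55, adjusted p = 0.089 by edgeR).

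In trained mice Nr4a3 averaged 7.96 ± 2.98 CPM in the male group and 19.3 ± 3.19 CPM in the female one (± SD, n = 5 a group), a difference of -1.28 (SE 0.45, 95% CI -2.23 to -0.33) with adjusted p = 0.106 by edgeR. The 2 groups did not overlap, as held for 7.38% of all genes. Fitted on the trained groups alone, whose spread for this gene was smaller, the difference passed (-1.28, SE 0.24, adjusted p = 0.012 by edgeR). Leaving out library 2 of the non-trained females also let it pass (adjusted p = 0.0485 by edgeR). The difference between the 2 sex effects is the interaction given above, 0.81 (SE 0.63), and it did not pass (adjusted p = 0.999 by edgeR).

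Nr4a1 stood next in non-trained mice at -0.98 (SE 0.28, 95% CI -1.58 to -0.39), with adjusted p = 0.0506 by edgeR and 0.023 by DESeq2, which called it. It averaged 102.9 ± 19.2 CPM in the male group and 203.6 ± 112.7 CPM in the female one (± SD, n = 5 a group). With 1 library left out in turn its log2 difference ran from -1.12 to -0.60, the latter without female non-trained library 1. Atf3 had -1.23 (SE 0.43, 95% CI -2.14 to -0.33), with adjusted p = 0.102 by edgeR and 0.046 by DESeq2. With 1 library left out in turn it ran from -1.41 to -0.62, the latter without female non-trained library 4. In non-trained mice DESeq2 called 3 of the 10 members and 1441 of 15516 genes. Btg2 had -0.55 (SE 0.26, 95% CI -1.09 to -0.01). Of the 10 members 4 stood at an unadjusted p under 0.05 in non-trained mice, where 21.7% of all genes did. In trained mice 3 did, where 20.7% of all genes did.

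Fosb passed in trained mice, at 0.178 ± 0.126 CPM in the male group and 0.785 ± 0.286 CPM in the female one (± SD, n = 5 a group). Its difference on the log2 scale was -2.13 (SE 0.62, 95% CI -3.42 to -0.84) with adjusted p = 0.0466 by edgeR. That was 1 of 10 members, where 5.6% of all genes were called, 2.22% being lower. The call rested close to the threshold and on 0 to 32 reads a library. It was kept in 5 of 20 fits with 1 library left out, those without female non-trained library 1 or 3, male non-trained library 2 or 5, or male trained library 3, and lost in the other 15 (adjusted p up to 0.10 by edgeR). In non-trained mice Fosb had -0.52 (SE 0.57, 95% CI -1.69 to 0.66).

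Markers of fibre type, macrophages and the clock also differed between the sexes. The 9 slow fibre markers summed to 771.1 to 2062 CPM in trained males and 529.3 to 6294 CPM in trained females, and to 369.6 to 1656 CPM in non-trained males and 1204 to 5015 CPM in non-trained females. Their log2 differences had a median of -1.84 in trained mice, where 1 of 9 fell in males by edgeR, 6 by DESeq2 and 0 by limma-voom, and all genes were called at 5.6% by edgeR. In non-trained mice the median was -2.30, and 6 of 9 fell by edgeR, 9 by DESeq2 and 8 by limma-voom, against 5.21% of all genes by edgeR. Over all genes DESeq2 called 1371 of 16119 in trained and 1441 of 15516 in non-trained mice. For limma-voom the counts were 730 and 1005 of 15709. In non-trained female libraries 1 to 5 the slow fibre sums were 5015, 4242, 1204, 3979 and 4723 CPM. The 5 macrophage markers summed to 46.99 to 233.7 CPM in trained males and 27.61 to 47.66 CPM in trained females, and to 59.24 to 135.2 CPM in non-trained males and 15.07 to 53.19 CPM in non-trained females. Of 19 clock genes 5 rose and 1 fell in trained males relative to trained females by edgeR, and in non-trained males 1 rose, Bhlhe41. DESeq2 called 10 and 5, and limma-voom 7 and 3. In trained mice the gene with the smallest p was Dbp, an output gene of the clock, at 2.12 (SE 0.39, adjusted p = 0.0039 by edgeR). The 3 erythroid markers summed to 147.6 to 2224 CPM in non-trained males and 116.2 to 273.9 CPM in non-trained females. By edgeR 2 of the 3 rose there, Hba-a1 and Alas2, while DESeq2 called 3 and limma-voom 0. Male non-trained library 4 held the 2224 CPM, and the next highest of its group stood at 714.7 CPM. In trained mice 0 of the 3 passed, with a median log2 difference of -0.31. None of these marker genes was at 0 in every library of a group.

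Female non-trained library 1, which led Nr4a1, Nr4a3 and Fosb, was the lowest of the 20 libraries for the markers of 5 other cell types. Its fibroblast markers summed to 100.8 CPM, against 286.2 to 930.9 CPM in the other 19 libraries, and its endothelial markers to 141.0 CPM, against 185.8 to 268.0 CPM. Smooth muscle and pericyte markers summed to 311.4 CPM in it, macrophage markers to 15.07 CPM and Schwann cell markers to 30.59 CPM. Other cell types did not go that way. Its satellite cell markers, at 29.19 CPM, were the highest of its group. Adipocyte (40.01), erythroid (196.8), neutrophil (4.558) and T cell markers (2.265 CPM) were not the lowest of the 20. Its glucocorticoid response genes summed to 2249 CPM, the highest of the 20, with female trained library 1 next at 2222 CPM. The part of any of these markers or genes in the sex differences was not tested.

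Spread between libraries of one group was large for these genes. The biological coefficient of variation (BCV), the spread left after counting noise, was above the trend of genes of like abundance for 10 of 10 members, where 26.2% of all genes tested were. Nr4a3 had a BCV of 0.47 against a trend of 0.16, Fos 0.57 against 0.22, Egr1 0.54 against 0.22 and Atf3 0.45 against 0.19. Junb and Nr4a1 had 0.37 and 0.31, and Btg2 0.28. Jun (0.18 against 0.14), Fosb (0.55 against 0.51) and Ier2 (0.26 against 0.25) stood close to their trend.

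On the log2 CPM scale the SD within groups ranged from 0.28 (Jun) to 0.91 (Fos), with a median of 0.63 over the 10 members and 0.26 over all genes tested. Fos lay at the 93.3rd percentile of all genes, Fosb at the 91.4th, Egr1 at the 89.2nd and Nr4a3 at the 88.9th, while Jun lay at the 52.7th. The median SD of the members was 0.45 in trained males and 0.44 in non-trained males, and 0.49 in trained females and 0.76 in non-trained females. Over all genes it was 0.22, 0.20, 0.23 and 0.29 in the same groups. Nr4a3 had the most unequal spread, with an SD of 0.25 in trained females and 1.36 in non-trained females. The 4 groups accounted for 55.2% of the variance of Nr4a3, 52.9% of that of Nr4a1 and 52.0% of that of Fosb, but 9.48% for Ier2 and 11.96% for Egr1, against a median of 23.3% over all genes.

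**Figure D3:**
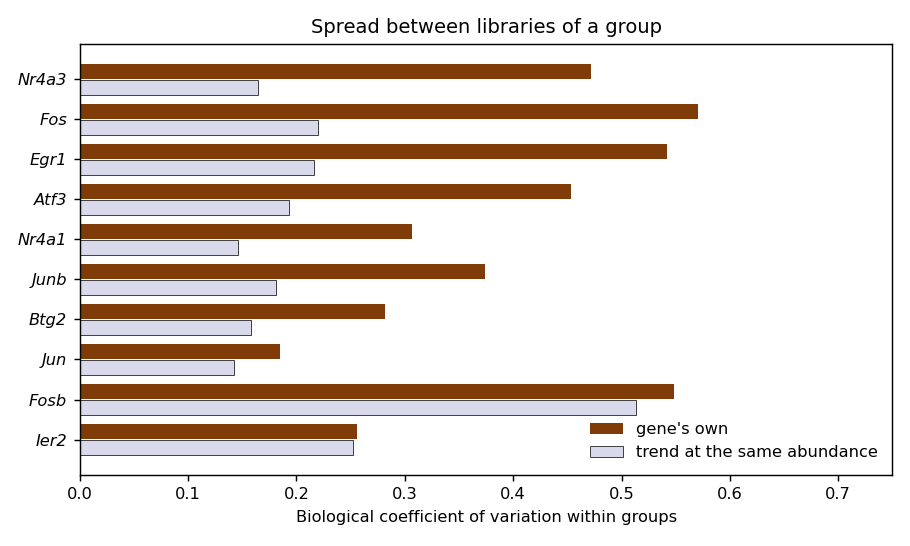
Biological coefficient of variation within groups for each gene (dark bars) and the trend of genes at the same abundance (light bars), from the fit over 20 libraries. The dark bar is the longer one for all 10 genes, from 0.26 against 0.25 for Ier2 to 0.47 against 0.16 for Nr4a3.

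High libraries were not the same for all members. By CPM, female non-trained library 1 was the highest of the 20 for 3 members (Fosb, Nr4a1 and Nr4a3), female non-trained library 5 for 3 (Fos, Egr1 and Ier2), female trained library 2 for 2 (Jun and Btg2), and female non-trained library 4 (Atf3) and male non-trained library 2 (Junb) for 1 each. No male trained library led any member, and the 5 male trained libraries had 0 to 4 of the 10 members above the mean of the 20 libraries, against 1 to 7 in non-trained males. Trained females had 3 to 9 and non-trained females 3 to 9.

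Members nonetheless moved together in part. Over the 20 libraries Ier2 and Btg2 had Pearson r = 0.79 (permutation p = 5e-05, 0.00225 adjusted over 45 pairs) and Spearman rho = 0.66 (permutation p = 0.0019, adjusted 0.012). Their r was 0.64 without the 2 libraries farthest from the median of Ier2, 0.79 in males, 0.82 in females, and 0.81 after the group means were removed. Junb and Ier2 had r = 0.75 (permutation p = 0.0002, adjusted 0.0045) and rho = 0.85 (permutation p = 1e-05, the smallest the 100000 permutations can give, adjusted 0.00045), and r = 0.73 within groups. Fos and Ier2 had r = 0.74 (permutation p = 0.00033, adjusted 0.005) and rho = 0.76 (permutation p = 0.00039, adjusted 0.0088), and r = 0.71 within groups. For these last 2 pairs r was 0.79 and 0.68 without the 2 farthest libraries, 0.79 and 0.82 in males, and 0.71 and 0.67 in females.

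These 3 pairs, all with Ier2, were the ones that passed after removal of group means (adjusted permutation p = 0.0045, 0.036 and 0.036). Nr4a1 and Nr4a3 had r = 0.67 (permutation p = 0.0012, adjusted 0.011) and rho = 0.60 (permutation p = 0.0066, adjusted 0.025). Their r was 0.39 without the 2 farthest libraries, 0.60 in males, 0.36 in females and 0.40 within groups (permutation p = 0.29, adjusted 0.54). Each of these lay below the 0.67 over all 20 libraries, and what the relation rested on was not tested. Egr1 and Nr4a1 had the lowest value within groups, -0.40 (permutation p = 0.24, adjusted 0.49). Across the 45 pairs the median r within groups was 0.23 and 36 pairs (80%) were above 0, where all 123378486 pairs of tested genes had a median of 0 and 49.9% above 0. All values of a library share its RNA, depth and scaling.

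**Figure D4:**
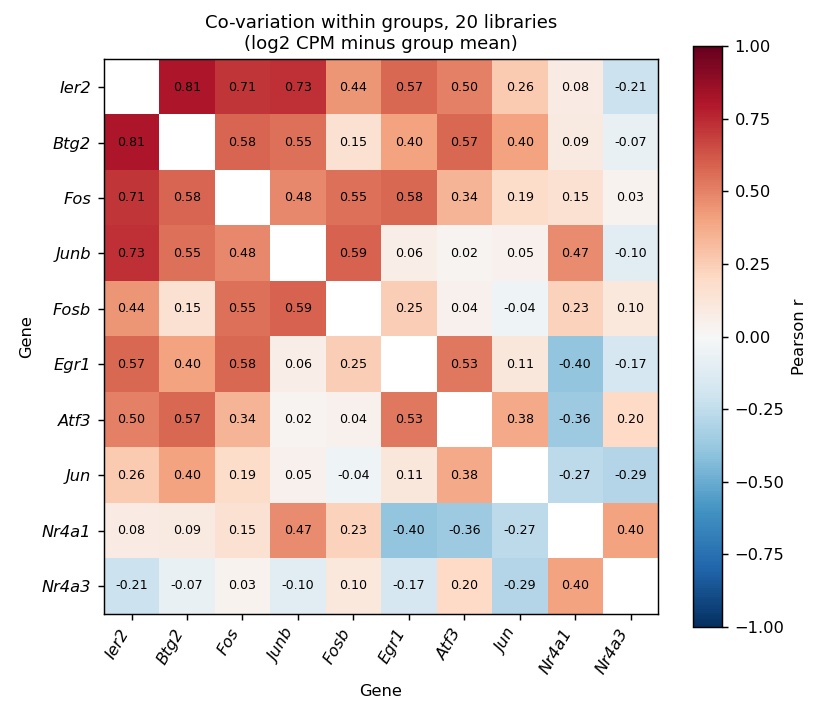
Pearson r of each pair of genes over 20 libraries, on log2 CPM with the mean of each group of 5 removed; red is positive and blue negative. Ier2, Btg2, Fos and Junb form a block of values from 0.48 to 0.81, while Nr4a1 and Nr4a3 range from -0.40 to 0.47 with the other 8 genes.

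Outside the set, genes were ranked by how closely they followed the mean of the 10 members within groups (Pearson r over 20 libraries, 12815 genes of at least 1 CPM). Predicted genes, clone names and pseudogenes were then left out. Among the genes kept, Socs3, a feedback inhibitor of cytokine signalling that is itself an immediate early gene, had the highest r at 0.81. Rnf219 (0.79), Borcs8 (0.78), Adamtsl4 (0.76), Immp2l (0.74), Tbca (0.73), Ppp2cb (0.71) and Ddx47 (0.71) followed. These are the highest of many values, given as a description.

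Other genes of the same response were read from lists. Of 20 further immediate early transcription factor genes 19 were tested, and for training 0 passed by edgeR in males, in females or on average, with medians of 0.08, 0.07 and 0.06. The 4 with the smallest p on average were Maff (0.50), a small MAF gene, Bhlhe40 (-0.36), Klf4 (0.34) and Nfil3 (0.42), at unadjusted p from 0.012 to 0.047 by edgeR. Before adjustment 0 of 19 stood under 0.05 in males, 1 in females and 4 on average, where 4.3%, 8.57% and 9.17% of all genes did, and DESeq2 and limma-voom called 0 in each. Of 30 effector and feedback genes 0 passed for training by edgeR, DESeq2 or limma-voom. At an unadjusted p under 0.05 there were 2 of 30 in males, 3 in females and 2 on average, where 4.3%, 8.57% and 9.17% of all genes stood. Gadd45b, a stress-inducible gene, had the smallest p of that list on average, at -0.90 (SE 0.31, adjusted p = 0.40 by edgeR), and Ppp1r15a, which encodes the eIF2 alpha phosphatase subunit GADD34, stood at -0.25 (SE 0.10, adjusted p = 0.43 by edgeR).

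Between the sexes Mafk (-0.57) fell and Srf (0.30), the serum response factor gene itself, rose in trained males relative to trained females. The other 17 of 19 did not pass by edgeR, which called 5.6% of all genes there. DESeq2 called 6 (Nr4a2, Maff, Mafk, Srf, Nfil3 and Crem), limma-voom 0, and 11 of 19 stood at an unadjusted p under 0.05, where 20.7% of all genes did. Over all genes DESeq2 called 1371 of 16119 and limma-voom 730 of 15709. In the effector list Dusp1 (-0.57), a MAP kinase phosphatase gene, and Ppp1r15a (-0.50) fell and 28 of 30 did not pass by edgeR. There DESeq2 called 3 and limma-voom 1, and 5 of 30 stood at an unadjusted p under 0.05. In non-trained mice 0 of the 19 and 0 of the 30 passed by edgeR, with Mafk at -0.55 (adjusted p = 0.053 by edgeR) and Plk3 at -0.93 (adjusted p = 0.089 by edgeR). Of the 19 there were 6, and of the 30 there were 7, at an unadjusted p under 0.05, where 21.7% of all genes stood. DESeq2 called 2 of each list (Mafk and Nfil3 in the first, Ier5l and Plk3 in the second), and limma-voom 0 and 1. Over all genes in non-trained mice DESeq2 called 1441 of 15516 and limma-voom 1005 of 15709.

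Genes known to respond to a bout of exercise did not pass for training either. Of 22 on that list 20 were tested and 0 passed by edgeR in either sex or on average. At an unadjusted p under 0.05 there were 3, 3 and 4 of 20, where 4.3%, 8.57% and 9.17% of all genes stood. DESeq2 called 0, 0 and 1 (Hes1), and limma-voom 0 in each. On average over the sexes DESeq2 called 28 of 13697 genes. Hes1, a Notch target gene, stood at -0.95 in males and -0.94 in females, with -0.94 on average (SE 0.18, adjusted p = 0.15 by edgeR). Ppargc1a, the gene of the coactivator PGC-1 alpha, stood at 0.51 on average (SE 0.23, adjusted p = 0.51 by edgeR) and Pdk4, a brake on glucose oxidation, at 1.24 in females (SE 0.50, adjusted p = 0.51 by edgeR). Il15 fell in males relative to females in both training states, by 0.82 in trained and by 1.19 in non-trained mice on the log2 scale. It was the 1 of 20 called by edgeR in each state, where 5.6% and 5.21% of all genes were. DESeq2 called 2 and 1 of the 20, and limma-voom 2 and 1.

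Lists that report handling or stress gave 0 calls for training by edgeR: 0 of 15 heat shock genes, 0 of 18 glucocorticoid response genes, 0 of 13 tested genes of the integrated stress response, to which Atf3 belongs, and 0 of 12 p53 targets, a group that includes Btg2 by function. DESeq2 and limma-voom also called 0 for training in each of these lists. At an unadjusted p under 0.05 in males, in females and on average stood 4.3%, 8.57% and 9.17% of all genes. Of the lists there were 1, 0 and 1 of 15 heat shock genes and 0, 3 and 1 of 18 glucocorticoid response genes. Of the 13 integrated stress response genes there were 0 in each, and of the 12 p53 targets 0, 1 and 3. For training in males all 15 heat shock genes had values above 0 (median 0.14), and for training in females 5 of 15 did (median -0.05). Between the sexes edgeR called 5.6% of all genes in trained and 5.21% in non-trained mice. Of these lists it called 0 and 0 of 15 heat shock genes and 2 and 2 of 18 glucocorticoid response genes. It called 3 and 1 of 13 integrated stress response genes, and 2 and 2 of 12 p53 targets. Klf15 and Foxo3, genes raised by glucocorticoids, fell in males in both training states (Klf15 by 0.78 in trained and 0.63 in non-trained mice, Foxo3 by 0.53 and 0.50). Sesn1, a p53 and FOXO target, fell by 1.24 in both, and Zmat3 fell by 0.49 in non-trained males while Phlda3 rose by 0.53 in trained males. Of the 13 integrated stress response genes Vldlr, a lipoprotein receptor gene, rose in males by 0.76 in trained and 0.68 in non-trained mice, while in trained males Mthfd2 rose by 0.75 and Cth fell by 1.31. The 10 cytoskeletal targets of the serum response factor had 1 call in each training state by edgeR, Vcl, the vinculin gene, higher in males by 0.52 in trained and 0.55 in non-trained mice. DESeq2 called 0 and 0 of the heat shock genes and 4 and 2 of the glucocorticoid response genes. It called 3 and 3 of the integrated stress response genes, 2 and 2 of the p53 targets and 1 and 1 of the cytoskeletal targets. For limma-voom the counts were 0 and 0, 2 and 2, 3 and 1, 2 and 1, and 1 and 1 in the same order. Over all genes DESeq2 called 1371 of 16119 and 1441 of 15516, and limma-voom 730 and 1005 of 15709.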

How the data were processed

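Each library has a deposited gene table. Its expected counts, per the file headers, were rounded to whole numbers here before testing. Its TPM values, also named per the file headers, were used to compare levels between genes. The submitters' processing notes list, with no roles, RSEM 1.3.1 and STAR 2.5.1, the trimmers cutadapt and Trim Galore, limma, edgeR and the build GRCm38. No annotation release is named there. GENCODE M21 gave symbols and GRCm38 coordinates for 53360 of 53465 identifiers. Groups come from the sample titles.

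Genes were filtered with filterByExpr (minimum count 10), scaled by TMM and fitted with 1 coefficient per group over 20 libraries (edgeR 4.0.16, robust quasi-likelihood, R 4.3.3), with Benjamini-Hochberg adjustment over 15709 genes. Standard errors (SE) are the log2 difference over the square root of F. Log2 CPM used a prior count of 2. Alternatives were DESeq2 1.42.0, limma-voom (limma 3.58.1), other scalings and filters, only the groups compared, and libraries left out. On counts simulated for training in females (15445 genes), 35 of 93 genes changed 1.5-fold and 67 of 98 changed 2-fold were recovered, with 3 false calls. The changed genes were drawn at random from all genes, each with its own spread. BCV over its trend had a median of 0.79 over all genes and 2.08 over the members. The simulation therefore does not give the recovery for genes as variable as the members.

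All 10 members are named whatever their values, with up to 4 genes per list and comparison by smallest p, any list gene that passed, and the 8 genes most alike. The members and lists were chosen with earlier results of these data known. RSEM divides reads that fit several genes. Counting error only is covered by read numbers, and 0 reads in 1 library bounds nothing about its cells.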

Additional observations from a re-analysis of the deposited data

Results flagged for a closer look

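Within each group of 5, the highest and the lowest library of each member were set against the others by Dixon's ratio of gap to range in CPM. For independent, normally distributed values about 1 in 20 groups pass. Of 40 groups 2 passed, the number that rate gives. The CPM were not log-transformed and the members share libraries, so the rate need not hold here, and chance was not tested. Egr1 stood at 31.78 CPM in female non-trained library 5, with the other 4 of its group at 3.82 to 8.17 CPM (ratio 0.845, critical value 0.71). Nr4a1 stood at 398.2 CPM in female non-trained library 1, with the other 4 at 123.0 to 199.1 CPM (ratio 0.723).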

How the results depend on the processing

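For training, 0 members passed in males, in females, on average or for the interaction under any alternative run. In trained mice the count of members called between the sexes, 1 as reported, was 0 with library size alone, without a low-count filter, with the stricter filter (which removed Fosb) and in limma-voom, 2 with only the trained groups (Fosb and Nr4a3), and 0 to 1 with 1 library left out. In non-trained mice, also 1 as reported, it was 2 with RLE size factors and with the stricter filter (Nr4a1 and Nr4a3), 3 in DESeq2 (with Atf3), 0 in limma-voom, with only the non-trained groups and without female non-trained library 1 and male non-trained library 5, and 1 to 2 with 1 library left out. Over all genes in trained mice, library size alone gave 1045 calls of 15709, no filter 558 of 31317 and the stricter filter 920 of 13308. There limma-voom gave 730 of 15709, DESeq2 1371 of 16119 and the trained groups alone 883 of 14772. In non-trained mice RLE gave 873 of 15709, the stricter filter 884 of 13308, DESeq2 1441 of 15516 and limma-voom 1005 of 15709. The non-trained groups alone gave 448 of 14823, and leaving out the 2 libraries 434 of 15848. Why the member counts moved was not tested.

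Of 60 log2 differences of members, 18 changed sign somewhere, none of them called. Without those 2 libraries the values were -0.075 for Nr4a3 (training in males), 0.34 for Fosb (training in females), 0.073 for Jun (mean), -0.31 for Fos and -0.0091 for Nr4a1 (interaction), and 0.13 for Fosb, -0.076 for Jun and 0.11 for Junb (sex, non-trained). In limma-voom they were -0.031 for Nr4a3 (training in males), 0.070 for Fosb and 0.15 for Atf3 (training in females), 0.10 for Junb (interaction) and 0.11 for Egr1 (sex, non-trained). Without a filter Jun (mean) was 0.0058. With 1 library left out the ranges were -0.15 to 0.20 for Nr4a3 (training in males). For training in females they were -0.39 to 0.42 for Atf3, -0.29 to 0.34 for Fosb and -0.33 to 0.087 for Ier2. For the mean they were -0.020 to 0.39 for Atf3 and -0.073 to 0.075 for Jun. For the interaction they were -0.072 to 0.74 for Atf3, -0.12 to 0.33 for Btg2, -0.43 to 0.91 for Egr1, -0.27 to 0.36 for Fos, -0.30 to 0.12 for Ier2 and -0.24 to 0.33 for Junb. For sex in non-trained mice they were -0.71 to 0.63 for Egr1, -0.25 to 0.069 for Ier2 and -0.095 to 0.13 for Jun.

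The SD within groups stayed within 1.5 times its value in 278 of 279 values, the exception being Egr1, at 0.52 without female non-trained library 5. No paired analysis was possible because the labels give the groups no shared replicate numbers. At 0 to 56 reads a library, Fosb was limited by depth.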
